A study of Mus musculus with 32 samples.

Results

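Messenger RNA of 7 genes linked to alternatively activated, or type 2, macrophages was followed library by library in irradiated and untreated KPC36 tumours of mice. The genes were Chil4, Chil3, Chil1, Il4ra, Retnla, Mrc1 and Clec10a, read as the rows with these symbols among the 55103 rows of the deposited table. They were selected on measured values, above all the very high Chil4 counts of some carbon-ion irradiated libraries, so the carbon-ion values are given here as a description, with no test of a difference between groups. All 7 genes passed the filter on low counts, as did 20474 genes in all.

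Macrophages exposed to interleukin-4 or interleukin-13 take on the alternatively activated state. Both cytokines signal through receptors that contain the chain encoded by Il4ra, and Janus kinases then phosphorylate the transcription factor STAT6, which switches on genes such as Retnla, Chil3 and Mrc1 in mice. Macrophages with these transcripts are common in solid tumours and in healing wounds, where they are known for matrix remodelling and for restraining T cells.

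KPC36 is a tumour line of the mouse, and KPC lines come from pancreatic tumours. The labels give 4 groups of 8 libraries: tumours treated with carbon ions (carbon_treated), their controls (carbon_ctrl), tumours treated with photons (photon_treated) and their controls (photon_ctrl). Controls were untreated and taken at the same times, days 4 and 7 per the design text, but the day of each library, the radiation dose and the strain of the host are not given in the sources used here. The labels call the cell type malignant, while the RNA came from whole pieces of tumour, so it holds the RNA of host cells too. In such bulk samples, fewer cells of a type and less RNA per cell cannot be told apart.

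Totals ran from 13891863 to 71645903 estimated counts per library. Levels are given in CPM, counts scaled to the size of each library after TMM normalisation, and differences as log2 fold changes with their standard error (SE). Titles of 4 carbon-ion controls and 3 irradiated libraries of that arm start with D and the others with M, letters whose meaning the labels leave out. The numbers in the titles of photon controls are all lower than those of the photon-irradiated libraries, so the photon effect and whatever the numbering follows cannot be told apart. Nothing in the labels says that the libraries of a group come from separate animals, so p-values measure the spread between these samples, which may be technical. The 10 macrophage markers examined, among them Adgre1, Csf1r and C1qa, were all measured in every library, and their summed level lay between 420 and 1630 CPM.

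Chil4 and Chil3 encode Ym2 and Ym1, secreted chitinase-like lectins of rodents. They are a pair of close copies on the minus strand of chromosome 3 (GRCm38, GENCODE M21 annotation). Chil3 lies at chr3:106147554-106167564 and Chil4 at chr3:106201490-106219507, each with 11 exons in its longest coding transcript. The gap of 33925 bases between them holds 1 annotated gene, the pseudogene Gm43709, which was at 0 in all 32 libraries. The coding sequences, of 1194 bases in Chil3 and 1206 in Chil4, are 94.4% identical, with 55 mismatches and 12 gap columns over 1206 aligned columns. The 90 coding bases from position 827 to 916 of both genes are shown because they hold 12 of these mismatches, printed in capitals, and so show what separates reads of the 2 genes.
Chil3: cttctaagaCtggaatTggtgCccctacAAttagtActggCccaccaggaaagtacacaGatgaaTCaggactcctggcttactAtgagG
Chil4: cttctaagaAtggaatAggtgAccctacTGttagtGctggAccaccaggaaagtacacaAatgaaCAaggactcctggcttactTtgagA
Of the 1132 windows of 75 bases in the Chil4 coding sequence, 112 (9.89%) also occur in Chil3. That window length was chosen here, since the read length is not given in the sources used here. The counting program divides a read that fits both genes between them, so the split of their counts carries an uncertainty that their sum does not.

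The sequences upstream of both genes are also alike, with 201 of 223 aligned columns identical (90.1%). They are shown up to the annotated start of transcription, beside that of Retnla, because these 3 genes of secreted proteins were each high in few libraries. RefSeq promoters (GRCm38.p6) were matched for 6 of the 7 genes. Capitals mark matches, on either strand, to the STAT motif TTCNNNGAA, to the STAT6 motif, in which 4 bases of any kind part TTC from GAA, or to the C/EBP motif TTGCNNAA, where C/EBP is a family of factors of myeloid cells. The windows are chr3:106167565-106167814 for Chil3, chr3:106219508-106219729 for Chil4, both minus strand, and chr16:48842359-48842550 on the plus strand for Retnla.
Chil3 upstream: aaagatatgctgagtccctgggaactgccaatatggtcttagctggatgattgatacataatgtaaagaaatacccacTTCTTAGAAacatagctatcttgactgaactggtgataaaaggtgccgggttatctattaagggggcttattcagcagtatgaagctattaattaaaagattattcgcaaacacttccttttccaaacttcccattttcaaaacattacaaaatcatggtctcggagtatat
Chil4 upstream: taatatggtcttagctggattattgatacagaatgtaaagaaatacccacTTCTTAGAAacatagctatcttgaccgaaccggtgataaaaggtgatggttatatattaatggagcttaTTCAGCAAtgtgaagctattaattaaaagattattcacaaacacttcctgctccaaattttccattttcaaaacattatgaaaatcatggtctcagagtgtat
Retnla upstream: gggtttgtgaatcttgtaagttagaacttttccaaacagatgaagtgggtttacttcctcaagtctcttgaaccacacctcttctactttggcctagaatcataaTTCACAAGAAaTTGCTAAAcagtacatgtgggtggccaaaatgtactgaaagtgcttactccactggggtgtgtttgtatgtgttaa
Positions are counted back from the end of the printed windows. The STAT match TTCTTAGAA begins 172 bases before that end in both Chil3 and Chil4. Chil4 also holds the C/EBP match TTCAGCAA on the minus strand, 103 bases before the end. In Retnla the STAT6 match TTCACAAGAA begins 87 bases before the end, and the C/EBP match TTGCTAAA follows it at 76. The search covered the 250 bases before the RefSeq start of each gene, which in Chil4 and Retnla lies further downstream than the start in the annotation at which the print stops. No match to the 3 motifs was found in these 250 bases of Mrc1, Chil1 or Il4ra. Among 32851 promoters searched over 250 upstream bases, 7.02% hold the STAT motif, 5.85% the STAT6 motif and 9.56% the C/EBP motif, so each match is a description of the letters and no more.

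Chil4 was near 0 in most libraries and high in part of the carbon-ion irradiated ones. The 8 carbon-ion irradiated libraries, in replicate order, were at 27.04, 0.146, 9.58, 135, 1.49, 9.34, 0.718 and 0.303 CPM. The carbon-ion controls ran from 0 over a median of 0.217 to 1.58 CPM, the photon controls from 0 over 0.0978 to 0.477 CPM and the photon-irradiated libraries from 0 over 0.168 to 2.45 CPM. Thus replicates 4, 1, 3 and 6 of the irradiated group stood above each of the 24 libraries of the other groups, and the other 4 lay within the range of those libraries. The 135 CPM of replicate 4 is 922 times the level of replicate 2 of the same group. In the 5 libraries where Chil4 was at 0, a count of 0 allows up to 3 counts, or 0.0765 to 0.158 CPM depending on the library, a limit for counting error alone.

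The group means of Chil4 were 22.9 ± 46.1 CPM (SD, n = 8) after carbon ions and 0.402 ± 0.510 CPM (SD, n = 8) in their controls, so the SD of the irradiated group exceeded its mean. The fitted log2 fold change after carbon ions was 5.84 (SE 1.15). It was 4.10 without carbon_treated replicate 4 and 6.62 without carbon_ctrl replicate 4. Chil4 in the D-titled irradiated libraries averaged 12.3 CPM (SD 13.6, n = 3) and in the M-titled ones 29.4 CPM (SD 59.1, n = 5), so high libraries occurred under both letters. After photons the log2 fold change was 1.79 (SE 1.18), from a mean of 0.169 ± 0.190 CPM in the controls to 0.604 ± 0.933 CPM (SD, n = 8 each), and it was 1.03 without photon_treated replicate 2. Replicates 2 and 4 of the photon-irradiated group lay above every photon control, and the other 6 lay within the control range. Since Chil4 was the reason for the choice of genes, none of these differences was tested.

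Chil3, the better known copy, peaked in another library than Chil4. In the carbon-ion irradiated libraries Chil3 was at 4.09, 0.468, 29.4, 1.20, 0.442, 1.72, 0.611 and 8.10 CPM in replicate order. The highest Chil3 library was therefore replicate 3, while the highest Chil4 library, replicate 4, held 1.20 CPM of Chil3. Replicates 1 and 3, both high in Chil4, also lay above every carbon-ion control in Chil3, and so did replicate 8, with 0.303 CPM of Chil4. Carbon-ion controls spanned 0.409 to 3.56 CPM with a median of 1.67, photon controls 0.881 to 12.2 CPM with a median of 4.07, and photon-irradiated libraries 0.196 to 4.55 CPM with a median of 0.797. After carbon ions, 4 of 8 Chil3 values lay above the control median and 4 below it. The log2 fold change of 1.79 (SE 0.73) was 0.47 without carbon_treated replicate 3.

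**Figure D1:**
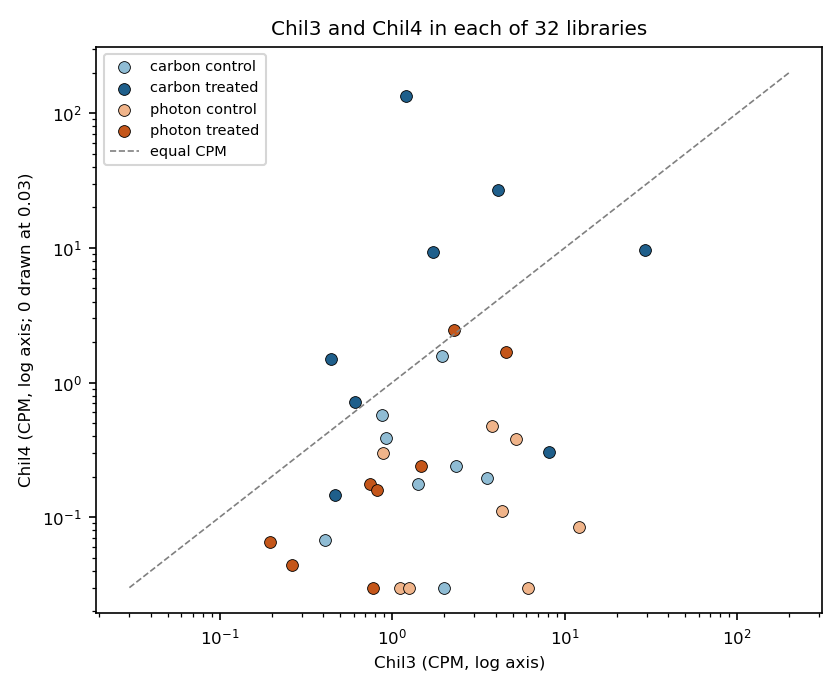
Chil4 against Chil3 in each of 32 libraries, both in CPM on log axes, with values of 0 drawn at 0.03 and the dashed line at equal CPM. The 4 libraries with the highest Chil4, at 9.34 CPM or more, are all from the carbon-ion irradiated group, and their Chil3 runs from 1.20 to 29.4 CPM.

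Both transcripts are annotated with 1539 bases, so their CPM may be set side by side. Of the summed Chil3 and Chil4 counts, Chil4 took 86.8, 25.8, 24.6, 99.1, 77.6, 84.6, 54.0 and 3.62% in the carbon-ion irradiated libraries in replicate order. The mean share was 57.0% there, against 19.2% in the carbon-ion controls, 5.75% in the photon controls and 21.05% after photons. The copy that made up most of the pair thus changed from library to library, as the plot of Chil4 against Chil3 shows. The sum itself, which does not depend on how shared reads were split, was 28.7 ± 45.7 CPM after carbon ions and 2.08 ± 1.13 CPM in their controls (SD, n = 8 each). Its log2 fold change was 3.79 (SE 0.83) after carbon ions and -1.14 (SE 0.77) after photons. Without carbon_treated replicate 4, a setting chosen after seeing the data, the irradiated mean was 13.3 ± 15.5 CPM (SD, n = 7) and the carbon-ion log2 fold change 2.66 (SE 0.73). Across the 32 libraries the Pearson correlation of log2 CPM was 0.24 between Chil3 and Chil4. The libraries come from 4 treatment groups and 2 title letters, which such correlations do not separate.

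Chil1 encodes a further chitinase-like lectin, BRP-39, and lies apart from the pair at chr1:134182176-134190181 (plus strand). Chil1 was low in every group. It ran from 0 to 0.703 CPM (median 0.235) in the carbon-ion controls, from 0 to 1.305 CPM (median 0.275) after carbon ions, from 0.277 to 1.301 CPM (median 0.423) in the photon controls and from 0 to 0.533 CPM (median 0.316) after photons. The groups overlapped, and the 3 libraries at 0 allow up to 0.0681 to 0.0972 CPM each. The library with the most Chil4, carbon_treated replicate 4, was one of those at 0. The photon effect on Chil1 was -1.17 on the log2 scale (SE 0.62, edgeR adjusted p 0.268).

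Il4ra, at chr7:125552120-125579474 (plus strand), encodes the receptor chain shared by interleukin-4 and interleukin-13, and it was measured in every library at 168 CPM or more. Carbon-ion controls had a lowest, median and highest value of 168, 223 and 268 CPM, irradiated libraries of that arm 190, 251 and 366 CPM, photon controls 221, 263 and 401 CPM and photon-irradiated libraries 206, 231 and 259 CPM. All groups overlapped. After photons 8 of 8 libraries lay below the control median, but the log2 fold change of -0.27 (SE 0.11) did not pass, with an edgeR adjusted p of 0.161. The carbon-ion value was 0.21 (SE 0.11). Il4ra overlaps Gm44876 on the opposite strand, which was at 0 in 31 of 32 libraries.

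**Figure D2:**
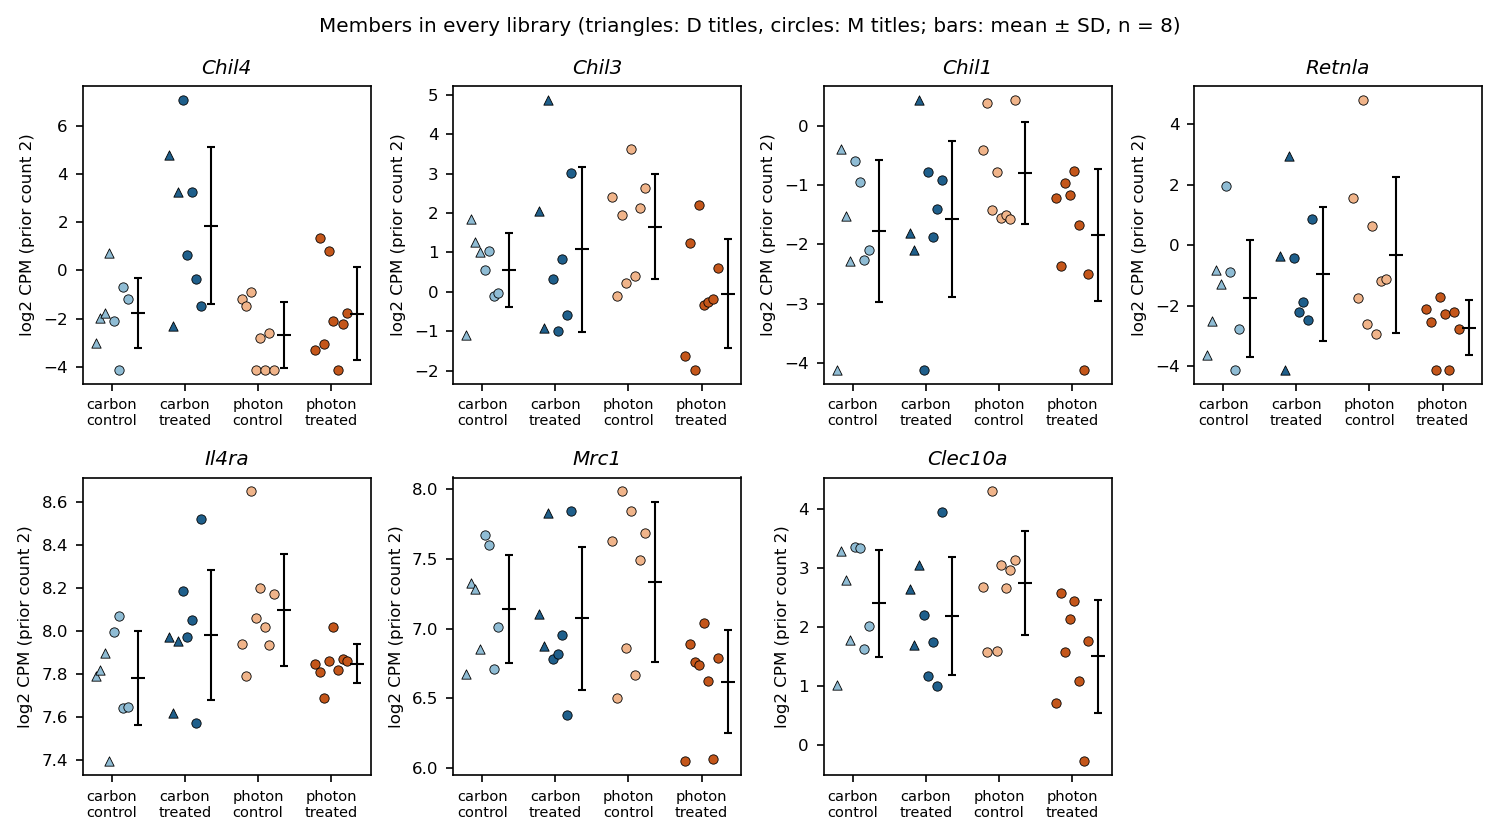
Log2 CPM (prior count 2) of the 7 genes in each library, with triangles for D titles, circles for M titles and bars for the mean ± SD of 8 libraries. Chil4 reaches 135 CPM in 1 carbon-ion irradiated library, and after photons Retnla and Mrc1 each lie below their control median in 8 of 8 libraries.

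Retnla, at chr16:48842551-48844461 (plus strand), encodes the secreted protein RELM-alpha, also called Fizz1. It fell after photons. The photon controls were at 2.89, 0.244, 28.01, 0.106, 1.496, 0.0741, 0.388 and 0.408 CPM in replicate order, and the photon-irradiated libraries ran from 0 over a median of 0.131 to 0.245 CPM. All 8 irradiated libraries lay below the control median of 0.398 CPM, 2 of them at 0, but the groups overlapped at the low end, where 3 controls lay at or under 0.245 CPM. The fit gave a log2 fold change of -4.98 (SE 1.27, edgeR adjusted p 0.0253). The size of this value rested on photon_ctrl replicate 3, without which it was -2.59 with an adjusted p of 0.199. It also missed the threshold without photon_treated replicate 7, at an edgeR adjusted p of 0.0508, and by DESeq2, at -2.60 with an adjusted p of 0.0925 after that tool had replaced 1 count as an outlier.

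In the carbon-ion arm Retnla was also carried by single libraries. The controls ran from 0 over a median of 0.238 to 3.84 CPM and the irradiated libraries from 0 over 0.448 to 7.67 CPM. The highest values belonged to carbon_ctrl replicate 5 and carbon_treated replicate 3, and the remaining values of both groups overlapped. The log2 fold change of 1.05 (SE 1.05) turned to -0.45 without carbon_treated replicate 3 and to -0.99 in the M-titled libraries alone, and it was 2.64 without carbon_ctrl replicate 5. Replicate 3 was also the irradiated library with the most Chil3.

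Mrc1 and Clec10a encode C-type lectin receptors of the cell surface. Mrc1, the mannose receptor CD206, lies at chr2:14229392-14332057 (plus strand) and contains Mir511, which was at 0 in all 32 libraries. Clec10a, the galactose-type lectin MGL1, lies at chr11:70156197-70170834 (plus strand). Mrc1 fell after photons, from 172 ± 61.8 CPM in the controls to 101 ± 23.4 CPM (SD, n = 8 each). Its photon controls ran from 90.5 over a median of 189 to 254 CPM and the irradiated libraries from 66.0 over 107 to 132 CPM. All 8 irradiated libraries lay below the control median and 2 below the lowest control.

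The log2 fold change of Mrc1 after photons was -0.77 (SE 0.22, edgeR adjusted p 0.0431). This call was near the threshold. It was lost without any one of photon_ctrl replicates 1, 3, 5, 7 and 8 or photon_treated replicates 1, 2, 3, 6, 7 and 8, with edgeR adjusted p values up to 0.110. Over all 32 such fits the log2 fold change lay between -0.87 and -0.66. It was also lost under upper-quartile scaling (edgeR adjusted p 0.0520), without the low-count filter (0.0591) and in the M-titled libraries alone (0.0567). After carbon ions Mrc1 was at 143 ± 55.2 CPM against 146 ± 39.3 CPM in the controls (SD, n = 8 each). The values overlapped, from 83.4 to 230 CPM and from 102 to 204 CPM, for a log2 fold change of -0.03 (SE 0.22).

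Clec10a followed Mrc1 closely over the 32 libraries, with a Pearson correlation of log2 CPM of 0.90. Its photon controls ran from 2.92 over a median of 7.05 to 19.8 CPM and the irradiated libraries from 0.769 over 3.13 to 5.96 CPM. All 8 irradiated libraries lay below the control median and 3 below the lowest control, yet the log2 fold change of -1.26 (SE 0.45) had an edgeR adjusted p of 0.0968. In the carbon-ion arm the means of Clec10a were 6.18 ± 3.48 CPM in the controls and 5.65 ± 4.51 CPM after irradiation (SD, n = 8 each), and the log2 fold change was -0.13 (SE 0.44).

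Over the set, the photon effect was tested for the 6 genes other than Chil4. Each of the 6 had a negative log2 fold change, and 2 of 6 passed, Retnla and Mrc1, where 3.81% of all 20474 genes passed in either direction, 2.10% as lower and 1.71% as higher. Chil3 did not pass, at -1.62 (SE 0.73, edgeR adjusted p 0.192), although 7 of 8 irradiated libraries lay below its control median. Chil4 was the exception in sign, at 1.79. In the carbon-ion effect no gene of the 20474 passed (0% called by edgeR), 1177 had an unadjusted p under 0.05, and DESeq2 called 17. For the set the carbon-ion log2 fold changes ran from 5.84 in Chil4 to -0.13 in Clec10a, with Chil3 at 1.79 and Retnla at 1.05.

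**Figure D3:**
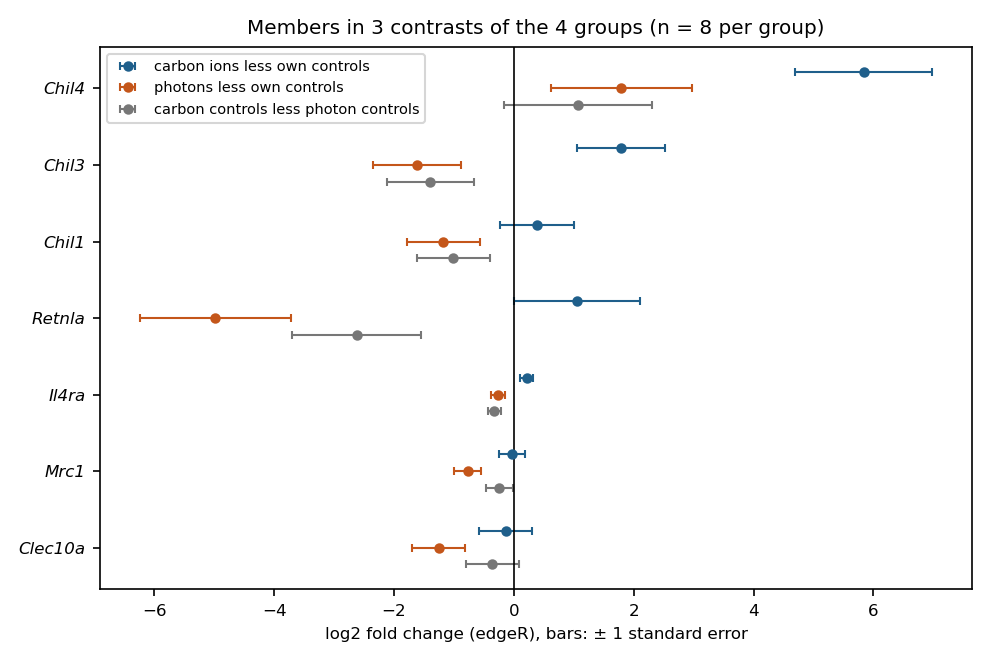
Log2 fold changes of the 7 genes with bars of 1 standard error, for carbon ions against their controls, photons against their controls, and carbon-ion controls against photon controls (n = 8 per group). Chil4 stands at 5.84 after carbon ions and 1.79 after photons, and Retnla at -4.98 after photons. The carbon-ion points and every Chil4 point are descriptions without a test.

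The differences between both effects, the carbon-ion value less the photon value, are given as a description, since the carbon-ion values entered the choice. They were 6.03 for Retnla (SE 1.63), 4.05 for Chil4 (1.63), 3.40 for Chil3 (1.04) and 0.74 for Mrc1 (0.31) on the log2 scale. Single libraries moved the first 3 of these. Retnla was at 3.63 without photon_ctrl replicate 3, Chil4 at 2.30 without carbon_treated replicate 4 and Chil3 at 2.09 without carbon_treated replicate 3. Over all genes 16 of 20474 (0.0781%) passed this contrast, 0.0342% as higher and 0.044% as lower. For Retnla and Mrc1 the photon value, -4.98 and -0.77, was the larger part, and for Chil4 the carbon-ion value was. For Chil3 the carbon-ion value of 1.79 and the photon value of -1.62 were of like size. The untreated groups themselves were not at one level, as follows.

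The controls of both arms, which had received no radiation, differed at 9.14% of all genes, 1871 of 20474, with 5.13% higher and 4.01% lower in the carbon-ion arm, and at 0 of the 6 tested genes of the set by edgeR. Of these 6, Il4ra and Retnla had an unadjusted p under 0.05, with edgeR adjusted p values of 0.0694 and 0.125. All 6 fold changes were negative, that is lower in the carbon-ion controls, though that of Clec10a was 0.0067 without photon_ctrl replicate 3. Retnla was at -2.62 (SE 1.07). Of 32 fits with 1 library left out it passed in the one without carbon_ctrl replicate 5, at -4.21 with an edgeR adjusted p of 0.0187. Without photon_ctrl replicate 3 the Retnla value was -0.23, and by DESeq2 -0.10. Il4ra, at -0.32 (SE 0.11), passed in the one without photon_ctrl replicate 2, at an edgeR adjusted p of 0.0456. The photon controls held the highest group mean of Retnla, Il4ra, Mrc1, Chil1 and Clec10a among the 4 groups. For Retnla this mean, 4.20 CPM, included the 28.01 CPM of photon_ctrl replicate 3. The photon-irradiated mean of Il4ra, 230 ± 14.6 CPM (SD, n = 8), lay between those of both control groups.

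Further genes of the pathway were read from lists chosen with earlier results of these data known. To set beside the counts in these lists, 3.81% of all 20474 genes passed after photons by edgeR, 2.10% as lower. By DESeq2 1524 genes passed after photons, 871 of them as lower. Between the controls 9.14% passed by edgeR. Upstream, the type 2 cytokines Il4, Il5, Il13, Il25, Tslp and Il10 did not pass the filter, with group means at or under 0.180 CPM. Il33, an alarmin that can activate type 2 lymphoid cells, was abundant and fell after photons, from 205 ± 44.6 to 126 ± 26.8 CPM (SD, n = 8 each). Its log2 fold change was -0.70 (SE 0.16, edgeR adjusted p 0.0156), which rose to 0.0519 without photon_ctrl replicate 3. Il33 was also lower in the carbon-ion than in the photon controls, by a log2 fold change of -0.88 with an edgeR adjusted p of 0.00114. In this list 1 of 4 tested genes passed after photons and 0 of 4 after carbon ions.

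Of 16 genes of the receptor and its signalling, 1 fell after photons by edgeR (3 by DESeq2), and none passed after carbon ions, where 2 had an unadjusted p under 0.05. This was Il2rg, the common gamma chain that pairs with the Il4ra product, at 15.2 ± 5.13 CPM in the controls and 8.48 ± 2.83 CPM after photons (SD, n = 8 each), with a log2 fold change of -0.84 and an edgeR adjusted p of 0.0253. It passed in 27 of 32 fits with 1 library left out and missed it without photon_ctrl replicate 3, 5 or 8 or photon_treated replicate 1 or 7, with edgeR adjusted p values up to 0.0751. Stat6, which carries the signal of the pathway to the nucleus, had group means from 94.3 to 101 CPM and a photon log2 fold change of 0.03 with an edgeR adjusted p of 0.805. Between the controls, Stat3 was lower in the carbon-ion arm (-0.57, edgeR adjusted p 0.00204) and Klf4, a factor that acts with STAT6, was higher (0.47, edgeR adjusted p 0.0155). The Klf4 call was lost in the M-titled libraries alone, at an edgeR adjusted p of 0.115.

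Among 20 other genes of alternative activation, 19 were in the table and all 19 were tested. After photons 3 fell and none rose by edgeR (6 and none by DESeq2), where edgeR called 2.10% of all genes as lower and 1.71% as higher. Of the 19 log2 fold changes 18 were negative, with a median of -0.79 beside -0.0006 over all genes. The 3 were Mgl2, a lectin gene related to Clec10a, Ccl24, the chemokine eotaxin-2 that attracts eosinophils, and Ear2, an eosinophil-associated ribonuclease. Mgl2 went from 24.3 ± 7.37 to 14.05 ± 3.84 CPM (SD, n = 8 each), a log2 fold change of -0.79 with an edgeR adjusted p of 0.0125, and it passed in all 32 fits with 1 library left out. Ccl24 changed by -1.90 with an edgeR adjusted p of 0.0366 and passed in 22 of these 32 fits, missing it without any one of photon_ctrl replicates 1, 3, 4, 5 and 8 or photon_treated replicates 1, 3, 5, 6 and 7. Ear2 changed by -1.34 with an edgeR adjusted p of 0.0241 and passed in 30, missing it without photon_ctrl replicates 3 and 5. The Ccl24 call was lost without the low-count filter, at an edgeR adjusted p of 0.0515.

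After carbon ions none of the same 19 genes passed by edgeR or DESeq2, and 3 had an unadjusted p under 0.05. Their log2 fold changes were positive in 14 of 19, with a median of 0.23 beside 0.0066 over all genes. In the difference of both effects DESeq2 called 4 of the 19 as higher, Msr1, Mgl2, Ccl24 and Ear2. Of the other pathway and cell marker lists it called Il33, Il13ra1, Il2rg, Retnlg, Lyz2, Siglecf, Ccr3 and Il5ra as higher. None of these genes passed that contrast by edgeR, and DESeq2 called no gene of the lists as lower there. Ptgs1, cyclooxygenase 1, was the 1 gene of the list that differed between the controls, higher in the carbon-ion arm by 0.42 with an edgeR adjusted p of 0.0216. It missed the threshold in the M-titled libraries alone (edgeR adjusted p 0.183) and without carbon_ctrl replicate 2 (0.0584) or photon_ctrl replicate 3 (0.0548).

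**Figure D4:**
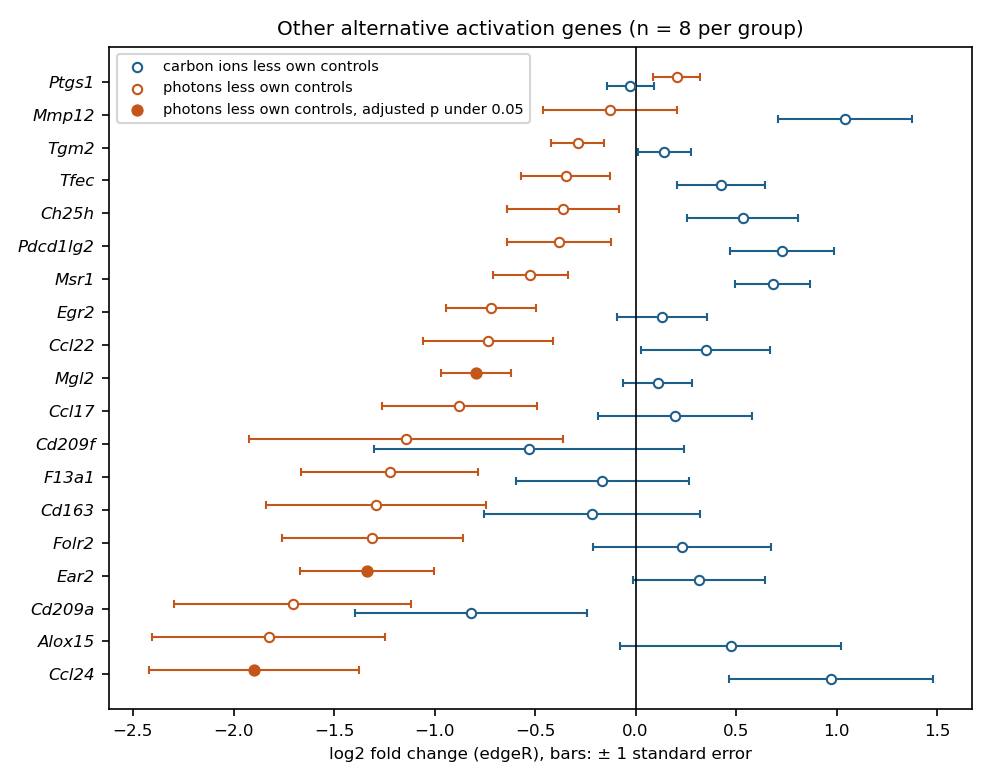
Log2 fold changes with bars of 1 standard error for 19 other alternative activation genes, after carbon ions (blue) and after photons (orange), each against its own controls (n = 8 per group). Filled points are the 3 genes with an edgeR adjusted p under 0.05 after photons, Mgl2, Ccl24 and Ear2, and 18 of 19 photon points lie left of 0.

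Few relatives of the secreted members were expressed above the filter. Of the 7 other chitinase family genes, Ovgp1, Chid1 and Ctbs were tested and 0 passed in any of the 4 contrasts by edgeR. After photons Ovgp1 had an unadjusted p under 0.05 and was called as higher by DESeq2, and after carbon ions there was 0 by either measure. Chia1, Chit1, Chil5 and Chil6 did not pass the filter, and their group means were at or under 0.206 CPM. Chit1, the chitotriosidase gene, had means of 0.206 and 0.193 CPM after carbon ions and photons, and of 0.0741 and 0.0708 CPM in the respective controls. In the resistin family Retnlg, a relative of Retnla expressed in neutrophils, fell after photons from 2.04 ± 1.19 to 0.524 ± 0.603 CPM (SD, n = 8 each). Its log2 fold change was -1.89 with an edgeR adjusted p of 0.0454, and it passed in 18 of 32 fits with 1 library left out. It missed the threshold without any one of carbon_ctrl replicate 3, carbon_treated replicates 5 and 6, photon_ctrl replicates 1, 3, 7 and 8 or photon_treated replicates 2 to 8, with edgeR adjusted p values up to 0.104. It also missed the threshold under upper-quartile scaling (edgeR adjusted p 0.0503) and without the low-count filter (0.0642).

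Of 13 genes of arginine metabolism 0 passed after photons or after carbon ions by edgeR or DESeq2, with 4 and 1 at an unadjusted p under 0.05. Sms, spermine synthase, was higher in the carbon-ion than in the photon controls (log2 fold change 0.67, edgeR adjusted p 0.00452). Of 14 classical activation genes 12 were tested. Cxcl10, a chemokine induced by interferon, rose after photons from 1.37 ± 0.474 to 5.53 ± 5.13 CPM (SD, n = 8 each), a log2 fold change of 2.005 with an edgeR adjusted p of 0.0135, and it passed in all 32 fits with 1 library left out. After carbon ions Cxcl10 was at 7.26 ± 4.99 CPM against 2.02 ± 0.640 CPM in the controls, a log2 fold change of 1.84 with an edgeR adjusted p of 0.314. DESeq2 called Cxcl10 as higher after carbon ions too, at 1.86 with an adjusted p of 0.0166, and Il6, an inflammatory cytokine, as lower after photons, at -1.29 with an adjusted p of 0.0431.

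Markers of cells that could carry these transcripts were read beside the photon values. Over all genes 2.10% passed as lower after photons by edgeR, a share to set beside each marker list. All 10 macrophage markers had negative log2 fold changes after photons, and 1 of the 10 passed, Csf1r, the receptor that sustains macrophages, at -0.54 with an edgeR adjusted p of 0.0260, in 25 of 32 fits with 1 library left out (lost without photon_ctrl replicate 1, 3 or 8 or photon_treated replicate 1, 3, 6 or 7). The summed macrophage level was 709 to 1417 CPM in the photon controls and 420 to 986 CPM after photons, and 878 to 1370 CPM in untreated tumours of the carbon-ion arm and 934 to 1630 CPM in irradiated ones. After carbon ions all 10 log2 fold changes were positive and none passed by edgeR or DESeq2, with 1 at an unadjusted p under 0.05. The part of macrophage content in the values of Retnla and Mrc1 was not tested.

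Neutrophils and eosinophils can also hold Chil3, Retnlg or Ear2 transcripts. Of 11 neutrophil markers 6 were tested, and Csf3r and Cxcr2 fell after photons, at -0.79 and -0.93 with edgeR adjusted p values of 0.0210 and 0.0129. The Csf3r call was lost without photon_ctrl replicate 8, at an edgeR adjusted p of 0.0508. The summed neutrophil level was 23.8 to 64.4 CPM in the photon controls and 15.9 to 36.4 CPM after photons. In the carbon-ion arm it was 28.2 to 55.0 CPM untreated and 25.1 to 49.6 CPM irradiated. Of 7 eosinophil markers 3 were tested, and Siglecf and Ccr3 fell after photons, at -0.93 and -2.06 with edgeR adjusted p values of 0.0130 and 0.0255. The Ccr3 call was lost without photon_ctrl replicate 1, 3 or 8, with edgeR adjusted p values up to 0.0611. Il5ra, the interleukin-5 receptor chain, missed the threshold at -1.61 with an edgeR adjusted p of 0.0544, while DESeq2 called all 3 as lower after photons. Between the controls Il5ra was lower in the carbon-ion arm, at -2.50 with an edgeR adjusted p of 0.00241, and passed in all 32 fits with 1 library left out. The granule genes Epx, Prg2 and Ear6 did not pass the filter and Ear1 was at 0 in all 32 libraries. The summed eosinophil level was 8.30 to 24.98 CPM in the photon controls and 5.28 to 8.16 CPM after photons, and 5.32 to 12.0 and 5.97 to 38.8 CPM in the carbon-ion controls and after carbon ions. The 38.8 CPM belonged to carbon_treated replicate 3, which also held the most Chil3 and Retnla of its group, and the next highest library of that group was at 15.2 CPM. Over the 32 libraries the Pearson correlation of Chil3 was 0.72 with the eosinophil level, its highest Pearson value with a marker list, as a description. By Spearman's rank correlation Chil3 was highest with the dendritic cell level, at 0.69, against 0.61 with the eosinophil level. The part of neutrophils and eosinophils in the values was not tested.

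Lists of other cell types had lower values after photons as well. All 7 dendritic cell markers had negative log2 fold changes and an unadjusted p under 0.05. Itgae, an integrin chain, and Zbtb46, a transcription factor of classical dendritic cells, passed at -1.48 and -0.58 with edgeR adjusted p values of 0.000456 and 0.00622, both in all 32 fits with 1 library left out. The summed dendritic cell level was 23.9 to 43.3 CPM in the photon controls and 16.2 to 21.4 CPM after photons. It was 16.6 to 39.1 and 14.8 to 29.8 CPM in the carbon-ion arm without and with irradiation. The 6 mast cell and basophil markers were all negative with an unadjusted p under 0.05, and none passed by edgeR or DESeq2. Their summed level was 25.6 to 121.4 CPM in the photon controls and 14.4 to 53.4 CPM after photons. Over the 32 libraries the Pearson correlation of Mrc1 was 0.64 with the macrophage level, 0.66 with the dendritic cell level and 0.64 with the mast cell level. It was 0.68 with that of type 2 lymphoid cells, the highest Pearson value of the 12 lists, as a description. By Spearman's rank correlation Mrc1 was highest with the macrophage level, at 0.70, against 0.67 with the type 2 lymphoid level. The type 2 lymphoid level had a photon control mean of 22.7 ± 11.4 CPM and a photon-irradiated mean of 20.9 ± 11.6 CPM (SD, n = 8 each). Its largest part was Il1rl1, with group means of 11.9 to 15.7 CPM.

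All 8 fibroblast markers were negative too, and Pdgfrb and Fap passed at -0.52 and -0.59 with edgeR adjusted p values of 0.0265 and 0.0322. Of 6 monocyte markers Vcan passed, at -0.73 (edgeR adjusted p 0.0242), while 2 of the 6 had positive values, among them Ly6c2 at 0.75. Of 4 tested markers of type 2 lymphoid cells Ccr4, a receptor of type 2 helper T cells, passed at -1.67 (edgeR adjusted p 0.0446), with Gata3 at -0.26, Il1rl1 at -0.08 and Il17rb at 0.36. With 1 library left out Vcan passed in 29 of 32 fits, Pdgfrb in 27, Fap in 23 and Ccr4 in 16, and each missed the threshold without photon_ctrl replicate 3 or 8, among others. Between the untreated groups Vcan, Ccr4 and Zbtb46 were lower in the carbon-ion arm, at -0.71, -1.50 and -0.40 with edgeR adjusted p values of 0.0134, 0.0403 and 0.0217. All 3 calls were lost in the M-titled libraries alone (0.181, 0.242 and 0.0720), and with 1 library left out Vcan passed in 32 of 32 fits, Ccr4 in 22 and Zbtb46 in 30. Between the controls Ccr4 also missed the threshold without the low-count filter (edgeR adjusted p 0.0714). In the same contrast the monocyte list went both ways, with Fn1 lower at -0.72 (edgeR adjusted p 0.0133) and Plac8 higher at 0.69 (0.0331). The fibroblast markers Pdgfra and Col1a2 were lower there, at -0.77 and -0.59 (edgeR adjusted p 0.0257 and 0.0479). Of the photon calls, that of Fap was also lost without the low-count filter (edgeR adjusted p 0.0580) and in the M-titled libraries alone (0.0574). That of Ccr4 was lost without the filter (0.0763). The 6 skeletal muscle markers had a median log2 fold change of -3.12, all with an unadjusted p under 0.05. Of these genes 0 passed by edgeR and 2 by DESeq2. The summed muscle level varied from 3.15 to 1165 CPM in the photon controls and from 0.963 to 302 CPM after photons, and its highest value, 2970 CPM, was in carbon_treated replicate 3. None of the genes of these lists passed after carbon ions by edgeR or DESeq2. The part of these cells in the photon values was not tested.

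Chil4 is also known from epithelia, so epithelial lists were set beside it. The summed level of 12 gastric and goblet cell markers was 98.9 to 343 CPM in untreated tumours of the carbon-ion arm and 102 to 682 CPM in irradiated ones, and that of 8 keratinocyte markers 9.55 to 22.9 and 7.27 to 23.4 CPM. None of the tested genes of both lists passed after either beam by edgeR or DESeq2, with 2 at an unadjusted p under 0.05 after photons and 0 after carbon ions. Between the controls 8 of the 12 gastric and goblet cell markers had positive log2 fold changes, with Fcgbp called as higher in the carbon-ion arm by DESeq2 (1.64, adjusted p 0.0489), while the gastric mucin gene Muc6 was lower there, at -1.94 with an edgeR adjusted p of 0.0407. Without photon_ctrl replicate 2 the Muc6 value was -1.11, with an edgeR adjusted p of 0.216. The Muc6 call held in 21 of 32 fits with 1 library left out and was lost in the M-titled libraries alone (edgeR adjusted p 0.257), without the low-count filter (0.0562) and with robust empirical Bayes (0.0572). Over the 32 libraries the Pearson correlation of Chil4 with these summed levels was 0.37 and 0.26, and 0.33 with the macrophage level, as a description. The part of these cells in the Chil4 values was not tested.

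The genes whose levels ran most like each of 4 members were named by the Pearson correlation of log2 CPM over 32 libraries, among genes at a mean log2 CPM of at least 0. For Chil4 they were Prap1 (0.75), Tnf (0.74), Lama3 (0.70), Igtp (0.69) and Tgtp1 (0.67). For Chil3 they included Cfp (0.83), Dock2 (0.83), Cnr2 (0.83) and Dab2 (0.82). Retnla ran most like Slc28a2 (0.85), Cd37 (0.83), Csf2rb2 (0.83), Fcgr2b (0.83) and Syk (0.82), and Mrc1 like Stard8 (0.92), Dab2 (0.92), Sirpa (0.91), Bend4 (0.91) and Clec10a (0.90). No gene was named for both Chil3 and Chil4, and Dab2 stands in those of Chil3 and Mrc1.

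Within the set, Mrc1, Clec10a, Chil3 and Retnla varied together. Among these 4 the pairwise Pearson correlations of log2 CPM ran from 0.68 between Retnla and Clec10a to 0.90 between Mrc1 and Clec10a. Chil4 had correlations of 0.28 with Retnla, 0.24 with Chil3, 0.00 with Mrc1, 0.05 with Clec10a, 0.03 with Il4ra and -0.24 with Chil1. Within these 32 libraries the high Chil4 levels therefore did not run with the levels of the 2 lectin receptors or of the interleukin-4 receptor chain.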

How the data were processed

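Total RNA of KPC36 tumour tissue was sequenced in 32 libraries after stranded mRNA library preparation, per the labels' protocols. The authors' deposited table holds estimated counts per gene, made with RSEM among the tools named in the submitters' processing notes. These notes list FastQC 0.12.0, Trimmomatic 0.32, RSEM 1.3.3 and the build mm10, while the gene models and whether counting used strand are not given in the sources used here. None of 853648 values above 0 was exactly whole, so the authors may have rescaled the counts. They were rounded to whole numbers, which moved no library total by more than 0.00403%.

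In R 4.3.3, genes were filtered with filterByExpr (minimum count 10), scaled by TMM and fitted with the quasi-likelihood test of edgeR 4.0.16 in 1 fit of 32 libraries and 4 group coefficients. P-values were adjusted by Benjamini-Hochberg over 20474 genes, with a threshold of 0.05. Standard errors are the log2 fold change divided by the root of F. CPM use TMM-scaled totals, and log2 CPM a prior count of 2. The scripts were tested on simulated data. DESeq2 1.42.0, other scalings, no filter, M-titled libraries alone, Chil3 and Chil4 summed, and each library left out were alternatives. Sequences were aligned with Biopython 1.88, and the reference was of the same build as mm10.

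The members and the lists were chosen with earlier results of these data known. By the rule for names, 7 members are described, with up to 5 most similar genes for 4 of them, and of each pathway list the genes that passed by edgeR in a contrast. Stat6, the untested cytokines and chitinases and the cell markers were named after their values were seen. Another gene of the set and 1 gene similar to Chil3 are not reported here. Replicate numbers follow the order of deposition.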

Additional observations from a re-analysis of the deposited data

Results flagged for a closer look

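In 3 of the 28 sets of 8 values (7 genes in 4 groups), 1 library stood apart from the other 7 by Dixon's test at the 95% level, where chance gives about 1 in 20. All 3 were values of Retnla. In the carbon-ion controls replicate 5 was at 3.84 CPM, with a gap to its nearest neighbour of 0.741 of the group's range on the scale of log2(CPM + 1). Carbon_treated replicate 3 was at 7.67 CPM, with a gap of 0.527, and photon_ctrl replicate 3 at 28.01 CPM, with a gap of 0.610. Carbon_treated replicate 3 passed the critical value narrowly. As carbon-ion values entered the choice of the genes, the flag in that group is a description.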

How the results depend on the processing

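No paired analysis was possible because the replicate numbers follow the order of deposition and the labels carry none that pair libraries. Of the members' log2 fold changes under 7 alternatives without a left-out library, 184 kept their side of the threshold (or, untested, moved by less than 1 SD) and 4 lost a call, those of Retnla and Mrc1 named in the report. Of those with a library left out, 880 stayed, 13 lost a call, 2 gained one and 1 reversed, Clec10a between the controls, which was -0.36 and ran from -0.50 to 0.0067, the latter without photon_ctrl replicate 3. In the untested carbon-ion effect the sign of Retnla, Mrc1, Chil1 and Clec10a turned in some of 39 alternatives, and kept in 37, 33, 37 and 38. For the other genes of the lists that passed, 15 values lost the call and 181 kept it, and with a library left out 101 lost and 795 kept it. The group means of the members and of the Chil3 and Chil4 sum moved by less than 1 SD under other scalings. Counts of genes past the threshold depended on the tool and on single libraries. The photon count of 781 was 431 without the filter and 1524 by DESeq2, and ran from 239 (without photon_ctrl replicate 3) to 1656 (without photon_ctrl replicate 2) with a library left out. The count between controls, 1871, was 973 in the M-titled libraries and ran from 1178 to 2196. The carbon-ion count of 0 was 17 by DESeq2 and ran from 0 to 5 (without carbon_treated replicate 2). The 16 genes of the difference became 94 under upper-quartile scaling, 4 without the filter, 1 in the M-titled libraries and 262 by DESeq2, and ran from 5 to 108. Upper-quartile scaling moved the split of the photon calls from 351 higher and 430 lower to 566 and 394, and that of the difference from 7 and 9 to 22 and 72. It was 16 higher and 1 lower for the 17 carbon-ion calls by DESeq2. No scaling moved the median of all genes by over 0.1. Depth limits Chil4, Retnla and Chil1, which were at or near 0 in several libraries.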
